A study of Arabidopsis thaliana with 12 samples.

Results

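Leaves of the Arabidopsis thaliana mutant sid2 were compared with leaves of the Col-0 wild type (WT) after both had received latrunculin B. The comparison used the 3 libraries titled sid2_latB and the 3 titled WT_latB, which are 6 of the 12 libraries of the series. It covered the 18149 genes that passed a filter on low counts, of 27313 genes in the deposited tables. The plants were 4 weeks old and had been kept at 22 °C under days of 10 h light and nights of 14 h, and rosette leaves, 3 on each plant, were infiltrated from a syringe without a needle with 1 µM latrunculin B. RNA came from leaves frozen 24 h later. The sid2 allele is not given in the labels, and neither is the DMSO content of the latrunculin B infiltrate. The other 6 libraries came from WT and sid2 leaves infiltrated with 0.01% DMSO. They serve to show where the genotype difference under latrunculin B departed from that under the carrier. They also enter the fit of all 12 libraries, so they bear on the filter, the scaling and the estimated spread behind the p-values under the drug. Nothing in the labels shows that the libraries within a group are from different plants, and the p-values then measure a spread that may be technical.

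Latrunculin B binds actin monomers and takes actin filaments apart. SID2 is the gene of isochorismate synthase (ICS1), a chloroplast enzyme at the head of the larger pathway to salicylic acid (SA), the hormone of defence against biotrophic pathogens. SA is read by the NPR proteins, which work with TGA transcription factors at the promoters of PATHOGENESIS-RELATED genes. This response is known to come with a larger capacity of the endoplasmic reticulum (ER) to fold secreted proteins, and immune signalling is known to lower transcripts of photosynthesis and growth. Since both groups held the drug, the comparison asks which transcripts of drug-treated leaves depended on the sid2 genotype.

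Library totals ran from 15180467 to 21046209 estimated reads in the 6 libraries. The 4 root markers (PIN2, CASP1, COBL9 and EXPA7) had 0 reads in all 6 libraries, while the genes of the photosynthetic light reactions together held at least 96993 read counts scaled to a common library total (CPM) in every library, as the leaf label implies. Levels are CPM on library sizes scaled by TMM, a method that sets the bulk of genes equal between libraries. Its factors ran from 1.166 to 1.258 in the WT and from 0.970 to 1.00 in the sid2 libraries, and the share of reads in the top 10 genes was 8.66% to 10.9% in WT against 14.1% to 16.1% in sid2.

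The genotypes differed widely under the drug. By the quasi-likelihood test of edgeR with Benjamini-Hochberg adjustment at 0.05, 4020 genes were higher in sid2 (22.1% of those tested) and 3850 were lower (21.2%). A change of at least 2-fold was found in 2073 of the higher genes (51.6%) and in 1800 of the lower genes (46.8%). The 3 libraries of one genotype lay wholly above those of the other for 10471 genes (57.7%). The median log2 fold change over all tested genes was 0.02. The even split between higher and lower genes (51.1% higher) depended on the scaling. With library size alone the median of all genes moved by -0.28 on the log2 scale and 31.0% of the calls were higher, and limma on log2(TPM + 1) moved it by -0.25 with 30.3% higher. Changes below are therefore relative to the bulk of genes. For genes, the words rose, fell, gain and loss compare sid2 with WT under the same treatment. They describe no change from DMSO to the drug. Per chromosome, 21.2% to 23.2% of the tested nuclear genes were higher and 20.8% to 22.1% were lower. Each list count below is to be read against the share of all tested genes. That share was 22.1% higher and 21.2% lower under the drug, and 4.46% higher and 6.56% lower under DMSO.

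ICS1 itself (AT1G74710, chr1:28070295-28074177 of TAIR10.1) was transcribed in the mutant. Its transcript level was 111, 136 and 161 CPM in the 3 WT libraries and 322, 299 and 385 CPM in the 3 sid2 libraries. Every sid2 library lay above every WT library, with a log2 fold change of 1.30 ± 0.15 (SE, n = 3 per genotype) and an adjusted p of 1.29e-05 in edgeR. Counts of transcripts do not show whether the enzyme is made, so the genotype labels are not checked by the ICS1 level, and the SA marker PR1 described below is the nearest check in these data. Under DMSO the excess in sid2 was larger (log2 4.03), and the difference between the genotype effects was -2.73 with an adjusted p of 2.8e-05.

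Most other genes that raise SA synthesis were lower in sid2 under the drug. Of the 16 measured genes of SA synthesis and its regulation, 8 were lower and 2 were higher in sid2, with a median log2 fold change of -0.59. Under DMSO the same list held 4 higher genes (4.46% of all tested genes were higher there) and 2 lower genes (6.56% were lower). SARD1, a transcription factor that switches on ICS1, had 106, 130.3 and 209 CPM in WT and 32.1, 37.4 and 37.9 CPM in sid2. The groups did not overlap, and the log2 fold change was -2.05 ± 0.24 (adjusted p = 1.76e-05). NDR1, a plasma membrane protein of resistance signalling, fell by 1.43 on the log2 scale, and SAG101, a partner of EDS1, fell by 1.38. The gene that joined ICS1 on the higher side was PAL2, a phenylalanine ammonia-lyase of the alternative SA route and of lignin synthesis. It had 32, 31.9 and 25.5 CPM in WT and 74.7, 89 and 68 CPM in sid2, with a log2 fold change of 1.37 ± 0.20 (adjusted p = 0.000101).

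PBS3, which joins isochorismate to glutamate in the next step toward SA, differed between the genotypes in opposite directions in the 2 treatments. Under latrunculin B its level was 99.8, 151 and 204 CPM in WT and 40.7, 51.4 and 60.7 CPM in sid2. The WT libraries spread 2.04-fold and still all lay above sid2, with a log2 fold change of -1.57 ± 0.27 (adjusted p = 0.000336). Under DMSO sid2 was the higher genotype (log2 1.80, adjusted p = 0.0015), and the difference of the effects was -3.37 (adjusted p = 0.00014).

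Genes that answer to SA had the lowest median fold change of the lists. The promoter of AT5G03350 is shown as that of the list member with the smallest adjusted p. The window holds the 300 bases directly before the annotated gene start in the RefSeq annotation of TAIR10.1, chr5:816671-816970, 5′ to 3′ on the strand of the gene, which is the minus strand. Capitals mark the core of the W-box (TTGAC), which WRKY factors bind, and the core bound by TGA factors (TGACG), searched on both strands. No other annotated gene lies in it.
AT5G03350: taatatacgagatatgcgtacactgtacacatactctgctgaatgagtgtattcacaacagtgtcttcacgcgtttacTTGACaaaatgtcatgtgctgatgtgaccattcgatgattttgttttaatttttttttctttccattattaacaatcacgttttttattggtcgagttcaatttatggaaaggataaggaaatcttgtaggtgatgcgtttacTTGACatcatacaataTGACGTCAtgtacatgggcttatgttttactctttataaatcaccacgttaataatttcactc
The window held 2 W-box cores and, in a palindrome read on both strands, 2 TGA cores. Among the 22 measured SA response genes, 10 windows (45.5%) held a TGA core and 14 (63.6%) a W-box core, against 22.2% and 50.2% of the windows of 18001 tested nuclear genes. The TGA share was also above that of all windows in other lists, at 43.5% for ER folding genes, 43.5% for cysteine-rich receptor-like kinases and 35% for light reaction genes, which were higher in sid2. A W-box core was in 60.9%, 78.3% and 35% of the windows of these lists, in that order. It was present in 56.1% of the windows of all lower genes and in 46.0% of those of all higher genes. These shares describe letters in a window, were not tested, and show no binding.

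PR1 (AT2G14610, chr2:6241640-6242541), a secreted defence protein and the usual SA marker, was low in sid2. Its level was 4145, 3688 and 5267 CPM in WT and 3.87, 1.68 and 7.59 CPM in sid2. No sid2 library came near the WT range, and the fitted fold was 997 (log2 -9.96 ± 0.53, adjusted p = 5.89e-08). Without sid2 replicate 3, the highest of the mutant libraries, the log2 fold change was -10.61. AT5G03350, a legume lectin family protein, had 1028, 1164 and 1039 CPM in WT and 60.6, 66.8 and 45.4 CPM in sid2. Its WT libraries agreed within 1.13-fold, and the loss of 18.7-fold (log2 -4.22 ± 0.21) had an adjusted p of 3.48e-08. LURP1, needed for full resistance to downy mildew, had 1171, 1253 and 1206 CPM in WT and 92.3, 63.1 and 72.7 CPM in sid2 (log2 -3.99 ± 0.29, adjusted p = 5.43e-07). The groups were again far apart, and BG3, a beta-1,3-glucanase, fell by 3.68 on the log2 scale.

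Of the 22 measured SA response genes, 20 were lower in sid2 under latrunculin B and 0 were higher, with a median log2 fold change of -2.80, which is the same with WRKY38, a gene without reads in sid2, at its lower bound. WRKY53 (0.74, adjusted p = 0.0587) and NUDT7 (-0.39, adjusted p = 0.0752) did not pass and were picked out after their values were seen. Summed over the list, WT libraries held 11922 to 14084 CPM and sid2 libraries 1634.5 to 1772.5 CPM. Under DMSO 12 of the 22 were lower and 2 were higher, with a median of -1.12. The difference of the genotype effects was negative for 9 members (10.7% of all tested genes) and positive for 1 (13.4%).

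**Figure D1:**
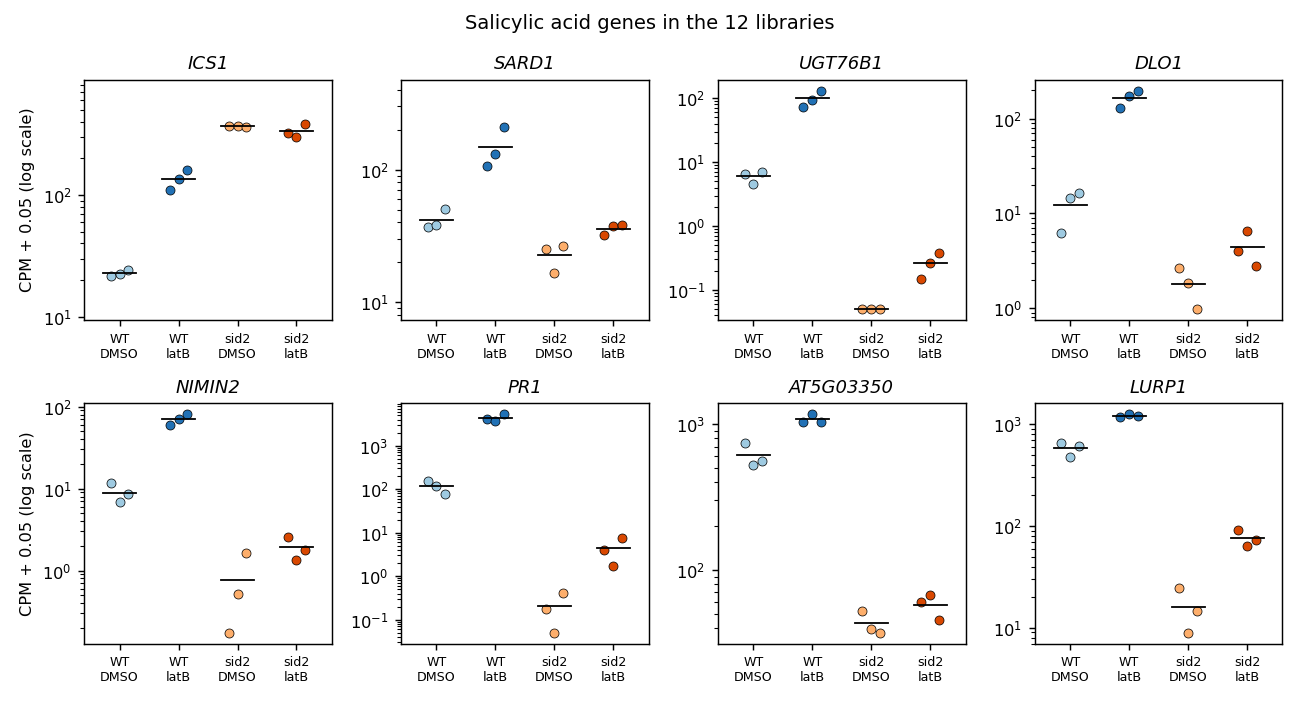
Transcript level in CPM (log axis, plotted with an offset of 0.05 so that libraries without reads appear) of 8 genes of SA synthesis, turnover, perception and response in the 12 libraries. Each point is a library and each line the mean of 3; under latrunculin B the sid2 points of PR1 lie at 1.68 to 7.59 CPM and the WT points at 3688 to 5267 CPM, while ICS1 is the panel in which sid2 is higher.

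Genes for enzymes that remove or release SA were mostly lower in sid2, as were the response genes. Of 6 measured genes of SA turnover, 4 were lower in sid2 and 0 were higher (21.2% and 22.1% of all tested genes), with a median of -1.94. UGT76B1, a glucosyltransferase of SA and N-hydroxypipecolic acid, had 73.7, 92.7 and 131 CPM in WT and 0.098, 0.217 and 0.327 CPM in sid2, where the whole group held 12 reads. DLO1, an SA hydroxylase, had 129, 173 and 197 CPM in WT and 3.92, 6.4 and 2.73 CPM in sid2. The groups did not overlap for either gene, with log2 fold changes of -8.84 ± 0.37 (UGT76B1) and -5.25 ± 0.40 (DLO1). DMR6, the other SA hydroxylase, fell by 2.25 on the log2 scale. MES9, an esterase that frees SA from methyl salicylate, was lower in sid2 under the drug (-1.63, adjusted p = 0.000314) and higher under DMSO (1.37, adjusted p = 0.0089).

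In SA perception, 9 of 13 measured genes were lower in sid2 and 0 were higher (21.2% and 22.1% of all tested genes), with a median of -1.28. NIMIN2, a small partner of NPR1, had 59.3, 70.9 and 80.4 CPM in WT and 2.55, 1.3 and 1.75 CPM in sid2 (log2 -5.22 ± 0.39). The relative NIMIN1 had 21.1, 19.7 and 24.3 CPM in WT, and 0.542 CPM in sid2 replicate 2 with no reads in the other sid2 libraries. Its fitted value of -6.89 became -6.28 without sid2 replicate 1 and -11.6 without sid2 replicate 2, so only its direction is firm. The SA receptor NPR4 changed less, with 76.7 to 76.9 CPM in the WT libraries against 38.2 to 40.4 CPM in the mutant libraries (log2 -0.96 ± 0.13), and TGA5 fell by 1.36. Of the N-hydroxypipecolic acid genes, 2 of 4 measured were lower in sid2, UGT76B1 and AT5G52810 (-2.54 ± 0.20). AT5G52810 encodes the reductase that completes pipecolic acid. ALD1, the aminotransferase that starts that pathway, had 14.6, 21.4 and 45.2 CPM in WT against 11.2 to 12.7 CPM in sid2 and did not pass (adjusted p = 0.126). It passed at 0.0147 in a fit to the 6 libraries alone, at 0.027 by limma on TPM and at 0.0387 without sid2_DMSO replicate 3.

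Some genes had no reads in any sid2 library of the series. Of 8 genes with at least 1 CPM in each WT library under latrunculin B and no reads in the 3 sid2 libraries, the 3 most abundant were ARD3, WRKY38 and AT3G47050. ARD3 (AT2G26400), annotated as an acireductone dioxygenase, an enzyme type of methionine salvage, had 319, 353 and 693 CPM in WT. Against a floor of 3 reads over the sid2 group this is at least 8667-fold lower in sid2, a bound that covers counting error only. WRKY38, an SA-induced transcription factor, had 11, 12.5 and 13.5 CPM in WT and was at least 235-fold lower. AT3G47050, a glycosyl hydrolase family protein, had 9.33, 6.67 and 8.59 CPM in WT and was at least 156.2-fold lower. All 3 also had 0 reads in the 3 sid2 libraries under DMSO, where WT had 2.96 to 8.58 CPM of ARD3, 2.23 to 2.77 CPM of WRKY38 and 0.832 to 1.96 CPM of AT3G47050. The gene next to AT3G47050, AT3G47040, lies 782 bases away and was also without reads in all 6 sid2 libraries, against 51 to 61 reads in WT under the drug. The gene on the other side of AT3G47050, AT3G47060, kept its reads, with 236 to 295 in sid2 and 238 to 320 in WT. Beside ARD3, IQD4 had 13, 1 and 15 reads in WT under the drug. Beside WRKY38, AT5G22560 had 1, 3 and 12. Both had 0 reads in all 6 sid2 libraries, and also in the 3 WT libraries under DMSO. The genes on the other sides, AT2G26390 and AT5G22580, had reads in every sid2 library. The reason for the missing reads was not tested.

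XTH10, a cell wall xyloglucan enzyme gene that lies next to PR1 on the other strand with 2230 bases between them, was also near 0 in sid2 under the drug. It had 36.9, 33.5 and 97.5 CPM in WT and 0.098, 0 and 0.109 CPM in sid2. WT replicate 3 was the highest, and without it the log2 fold change of -9.51 became -8.85. Under DMSO XTH10 did not differ past the threshold (-0.45, adjusted p = 0.81), and the difference of the effects was -9.06 (adjusted p = 0.0012). AT2G44240, a protein of unknown function, had 42.4, 60 and 80 CPM in WT and 0.392, 0.0542 and 0.218 CPM in sid2 (log2 -8.02, or -8.73 without sid2 replicate 1). AT3G60470, another protein of unknown function, had 335 reads over the WT libraries and 2 over the sid2 libraries, a ratio of 160 with a 95% counting interval from 44.0 to 1330.

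The protein folding machinery of the ER was lower in sid2 throughout. The promoters of BIP3 and PDIL1-2 are shown because these genes had the largest and the most significant losses of that list. The windows are built as above, from chr1:2931851-2932150 on the minus strand for BIP3 and chr1:29126348-29126647 on the plus strand for PDIL1-2. Capitals mark CCAAT and CCACG, the parts of the ER stress element, with ATTGG as CCAAT on the opposite strand. No annotated gene other than the one named lies in either window.
BIP3: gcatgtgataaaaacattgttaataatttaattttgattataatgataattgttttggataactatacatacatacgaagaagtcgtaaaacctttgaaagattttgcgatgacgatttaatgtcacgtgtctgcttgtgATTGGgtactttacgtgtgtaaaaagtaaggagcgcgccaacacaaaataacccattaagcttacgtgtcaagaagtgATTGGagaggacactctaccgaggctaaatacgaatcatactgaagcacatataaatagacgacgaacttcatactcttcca
PDIL1-2: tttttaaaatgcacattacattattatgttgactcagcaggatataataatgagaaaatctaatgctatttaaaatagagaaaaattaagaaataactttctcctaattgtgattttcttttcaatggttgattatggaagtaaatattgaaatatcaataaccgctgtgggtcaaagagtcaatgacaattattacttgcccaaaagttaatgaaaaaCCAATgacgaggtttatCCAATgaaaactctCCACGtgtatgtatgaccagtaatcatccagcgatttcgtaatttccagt
The BIP3 window held 2 CCAAT matches and no CCACG, and the PDIL1-2 window held 2 CCAAT matches and 1 CCACG. Among the 23 ER folding genes, 11 windows (47.8%) held CCACG and 16 (69.6%) CCAAT, against 17.9% and 53.7% of all windows. Of the 40 light reaction genes, which moved the other way, 16 windows (40%) held CCACG and 29 (72.5%) CCAAT. GAAGAAGAA, the repeat reported for NPR1-dependent secretory pathway genes, was found in 3 of the 23 windows (13.0%) against 5.10% of all windows.

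BIP3, an ER chaperone of the Hsp70 family that is induced by ER stress, had 134, 171 and 214 CPM in WT and 14.1, 15.2 and 17.7 CPM in sid2. The lowest WT library was 7.57 times the highest sid2 library, and the log2 fold change was -3.47 ± 0.21 (adjusted p = 1.76e-07). PDIL1-2, a protein disulfide isomerase, had 329, 361 and 362 CPM in WT and 66, 79.4 and 72.4 CPM in sid2 (log2 -2.27 ± 0.12, adjusted p = 8.92e-08). The isomerases PDIL2-2 (-2.24 ± 0.14) and PDIL1-1 (-2.03 ± 0.13) changed by much the same amount. CRT1B, a calreticulin that folds glycoproteins with calcium, had 504, 464 and 537 CPM in WT and 165, 148 and 179 CPM in sid2 (log2 -1.62 ± 0.13), and was higher in sid2 under DMSO (0.44, adjusted p = 0.033).

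All 23 measured ER folding genes were lower in sid2 under latrunculin B, with a median of -1.79 and a range from -3.47 to -0.47. Their summed level was 8176.9 to 9483.1 CPM in WT against 2387.8 to 2567.7 CPM in sid2. Under DMSO 3 were lower and 1 was higher, with a median of -0.17, and the difference of the effects was negative for 22. The machinery that feeds and serves the folding chamber was lower too. Of 14 genes of translocation, glycosylation and retrieval 11 were lower and 0 higher, with a median of -1.05. STT3B, the catalytic subunit of oligosaccharyltransferase, had 55 to 65.2 CPM in WT against 21.6 to 23.5 CPM in sid2 (-1.41 ± 0.12). AT5G50460, a Sec61 gamma subunit of the translocation pore, fell by 2.04, and the Sec61 alpha genes AT2G34250 (-1.19) and AT1G29310 (-1.34) fell less. The latter pair are close copies whose reads the estimation may have divided.

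Of 10 measured genes of unfolded protein response signalling, 8 were lower in sid2 and 0 higher, with a median of -0.65. With upper-quartile scaling 6 passed. TIN1, a protein induced by tunicamycin, had 28.7 to 31.7 CPM in WT against 4.85 to 7.91 CPM in sid2 (-2.21 ± 0.19). BI1, a membrane protein that restrains cell death, had 197 to 245 CPM in WT against 67.2 to 77.3 CPM in sid2 (-1.59 ± 0.14). The sensor BZIP17 fell by 1.18, and the membrane-tethered factor NAC062 by 0.78. None of these 4 differed past the threshold under DMSO (adjusted p = 0.82, 0.58, 0.42 and 0.097).

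**Figure D2:**
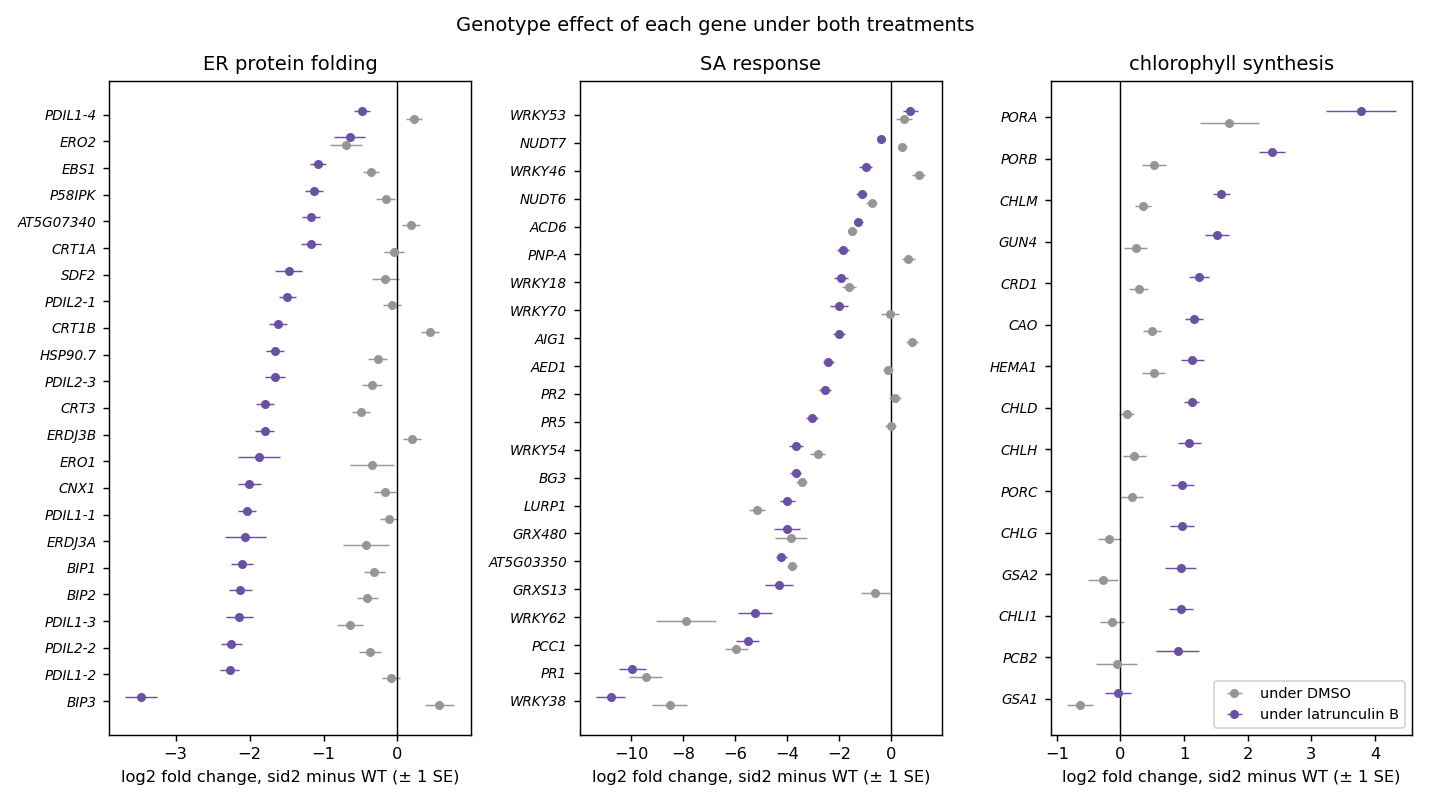
Genotype effect (log2 fold change of sid2 over WT, with bars of 1 SE) of every measured gene of ER protein folding, SA response and chlorophyll synthesis, under latrunculin B and under DMSO. All 23 ER folding genes lie below 0 under the drug, from -3.47 to -0.47, while their median under DMSO is -0.17; the fitted value of WRKY38, which has no reads in sid2, is no measured fold.

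Receptors and kinases of immunity were mostly lower in sid2. Of 23 measured cysteine-rich receptor-like kinases, 19 were lower and 0 higher, against 21.2% and 22.1% of all tested genes, with a median of -1.73. CRK23 had 43.7, 47 and 43.8 CPM in WT and 6.47, 7.27 and 7.64 CPM in sid2. The replicates were tight in both genotypes, and the log2 fold change was -2.65 ± 0.17 (adjusted p = 2.39e-07) with no difference past the threshold under DMSO (-0.02, adjusted p = 0.95). CRK6 (-2.58), CRK7 (-2.70) and CRK45 (-2.46) fell by similar amounts. CRK10, CRK11, CRK29 and CRK41 did not pass, with log2 values from -0.53 to 0.58, and were named after their values were seen. Under DMSO 5 of the 23 were lower and 1 was higher, against 6.56% and 4.46% of all tested genes.

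Of 24 measured genes of pattern-triggered immunity, 13 were lower and 3 were higher in sid2 (21.2% and 22.1% of all tested genes), with a median of -0.96. FRK1, a receptor kinase gene used as a marker of flagellin responses, had 128, 159 and 206 CPM in WT and 9.41, 11.1 and 18.4 CPM in sid2 (-3.67 ± 0.45). The groups did not overlap. MPK11, a mitogen-activated protein kinase, fell by 2.54, RLP23, the receptor of a peptide from microbial necrosis-inducing proteins, by 2.12, and CERK1, the chitin receptor kinase, by 1.07. The 3 genes on the higher side were FLS2, the flagellin receptor, PEPR1, a receptor of plant danger peptides, and CYP81F2, an enzyme of indole glucosinolates. FLS2 had 23.2, 24 and 24.2 CPM in WT and 48.2, 29.8 and 52.7 CPM in sid2 (0.87 ± 0.24, adjusted p = 0.0086). The list held 1 higher gene without WT replicate 3, and also by limma on TPM or by library size alone. PEPR1 (0.69 ± 0.24) did not pass without WT replicate 1, WT replicate 3 or sid2 replicate 2, with adjusted p from 0.0788 to 0.143. CYP81F2 (2.36, adjusted p = 0.0127) no longer passed without WT replicate 3 (adjusted p = 0.0589).

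Of 20 measured intracellular immune receptors (NLRs) 6 were lower and 1 higher (median -0.34), against 21.2% and 22.1% of all tested genes. The lower count depended on scaling, since 14 were lower by library size alone and 15 by limma on TPM. The higher call was lost without any one of the 6 libraries. AT5G66910, of the coiled-coil class, had 43.1 to 48.4 CPM in WT against 13.2 to 17.6 CPM in sid2 (-1.54 ± 0.19). The helper receptors ADR1 (-0.96) and ADR1-L1 (-0.95) were next, and RPS2, which guards RIN4, fell by 0.65. WRKY factors outside the SA list were lower in 12 and higher in 2 of 25 measured, with a median of -0.75, and the higher count was 0 without WT replicate 1 or 3 and 1 without any sid2 replicate. WRKY51 had 17, 20.9 and 38 CPM in WT and 1.03, 0.217 and 0.709 CPM in sid2 (-5.25 ± 0.48), and its close relative WRKY50 fell by 2.48. WRKY60 fell by 1.14. WRKY75 fell by 3.52, or by 2.84 without WT replicate 3, its highest library.

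Camalexin, the indole phytoalexin of Arabidopsis, gave no common direction. Against 21.2% lower and 22.1% higher of all tested genes, 3 of its 10 measured genes were lower and 1 higher, with a median of 0.12. Leaving out WT replicate 1 or 2 or any sid2 replicate removed the higher call, and leaving out sid2_DMSO replicate 2 made it 2. CYP71A13, which makes the nitrile intermediate, had 94.9, 197 and 298 CPM in WT and 21.2, 25.7 and 18.9 CPM in sid2 (-3.16 ± 0.54, adjusted p = 0.000333). CYP79B2, one step earlier, was lower in sid2 under the drug (-1.27) and higher under DMSO (1.25, adjusted p = 0.0077).

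**Figure D3:**
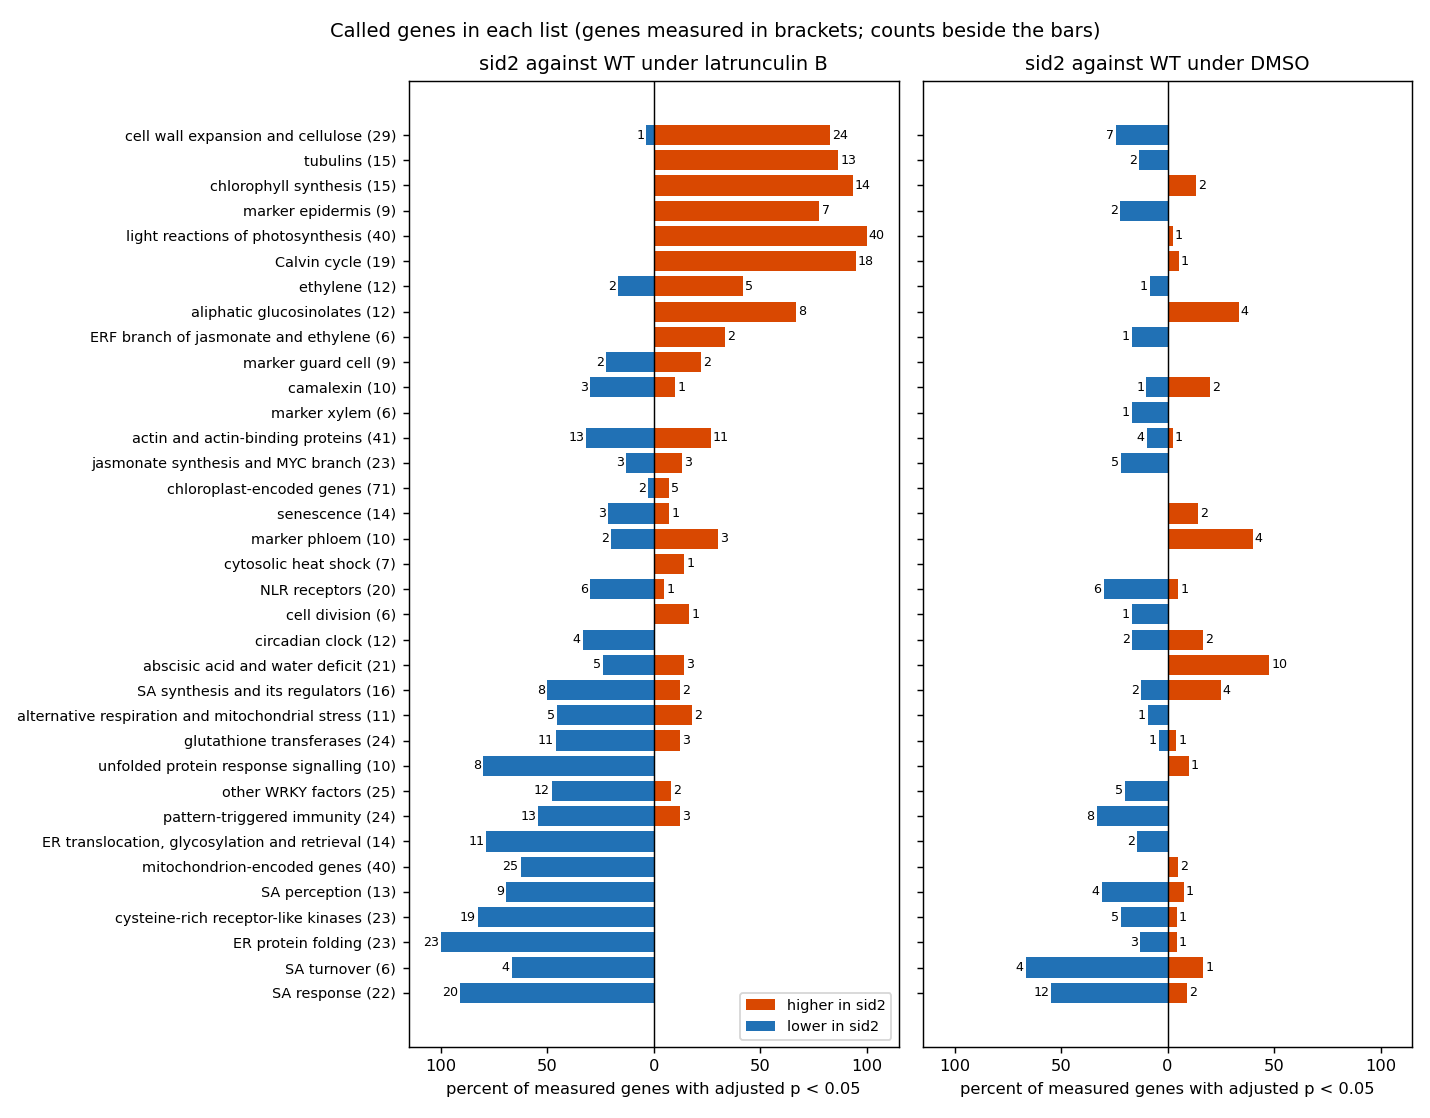
Share of the measured genes of each list (percent, lists with at least 6 measured genes) that were higher or lower in sid2 by edgeR at an adjusted p under 0.05, under latrunculin B on the left and DMSO on the right. Lists are ordered by their median log2 fold change under the drug, from SA response (-2.80) to cell wall expansion (1.54); under DMSO most bars are short.

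Transcripts of photosynthesis were higher in sid2 than in WT. All 40 measured genes of the light reactions were higher, with a median log2 fold change of 1.01, and together they held 96993 to 145630.0 CPM in WT against 222180.0 to 264590.0 CPM in sid2. By library size alone and by limma on TPM 39 passed. LHCB2.3, a light-harvesting protein of photosystem II, had 1166, 946 and 540.4 CPM in WT and 3532, 3100.0 and 3154 CPM in sid2 (1.88 ± 0.23, adjusted p = 2.8e-05). WT replicate 3 was the lowest, and the groups stayed apart. LHCB2.2 (1.30), PSAN of photosystem I (1.23) and LHCB5 (1.16) changed by less. LHCB2 copies are near-identical, so the division of reads between them is uncertain. In bulk tissue, fewer cells of a type and less RNA per cell cannot be told apart. Under DMSO 1 of the 40 was higher, and the difference of the effects was positive for 31.

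The Calvin cycle and chlorophyll synthesis followed the same direction. Of 19 measured Calvin cycle genes 18 were higher and 0 lower (median 0.91), with 14 higher by library size alone. GAPA2, a subunit of the chloroplast glyceraldehyde phosphate dehydrogenase, had 889.8, 891 and 575 CPM in WT and 2168, 2380.3 and 1769 CPM in sid2 (1.42 ± 0.18). RBCS2B, a small subunit of Rubisco with near-identical copies, rose by 1.31, HCEF1, the fructose bisphosphatase, by 1.08, and PRK, phosphoribulokinase, by 1.00. Of 15 measured genes of chlorophyll synthesis 14 were higher and 0 lower (median 1.12). PORB, a light-dependent protochlorophyllide reductase, had 86.7, 74.8 and 51.4 CPM in WT and 348, 337 and 427 CPM in sid2 (2.38 ± 0.20, adjusted p = 1.57e-06). The groups were separated by a wide gap. CHLM (1.59 ± 0.13), a methyltransferase, GUN4 (1.52), which activates the magnesium chelatase, and the chelatase subunit CHLD (1.12) were also higher in sid2. Genes encoded in the chloroplast itself did not follow, with 5 of 71 measured higher, 2 lower and a median of -0.03.

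**Figure D4:**
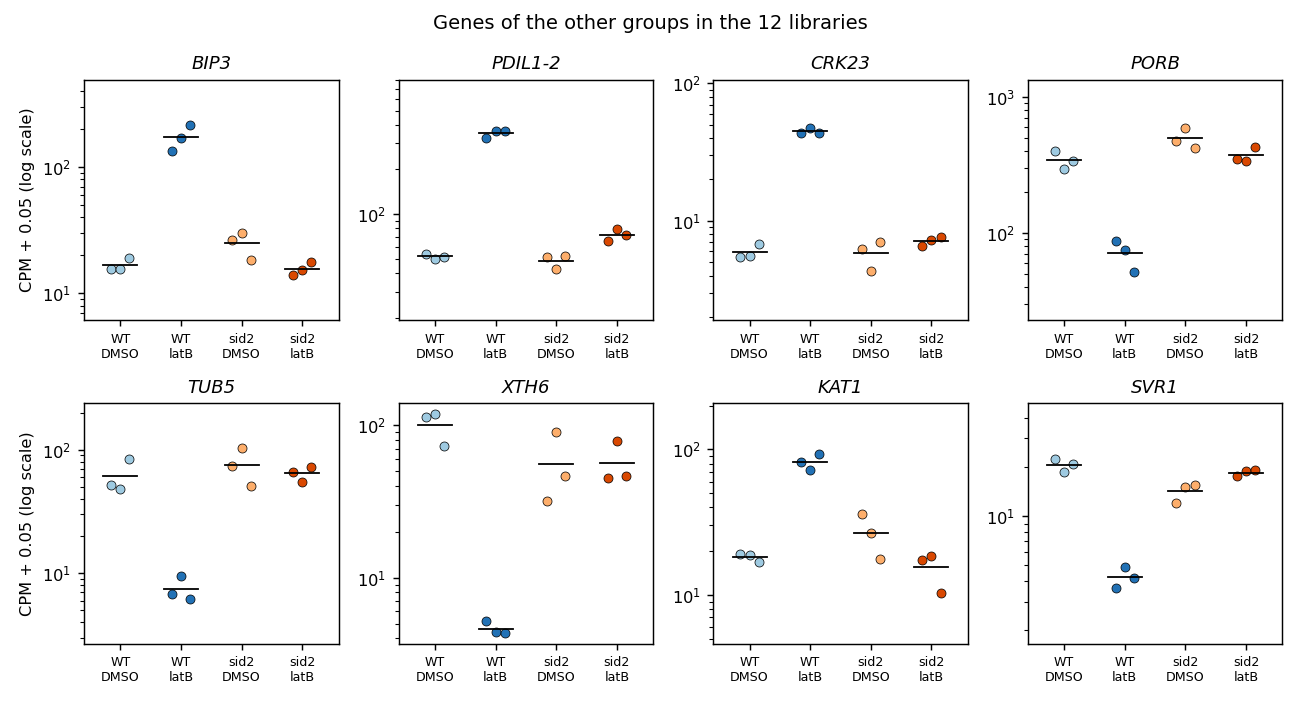
Transcript level in CPM (log axis, offset of 0.05) of 8 genes outside the SA pathway in the 12 libraries, with points for libraries and lines for the means of 3. BIP3, PDIL1-2, CRK23 and KAT1 are lower in sid2 than in WT under latrunculin B, and PORB, TUB5, XTH6 and SVR1 are higher; the 2 genotypes do not overlap there in any panel.

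Genes of growing cells were higher in sid2 as well. Of 29 measured genes of cell wall expansion and cellulose synthesis, 24 were higher and 1 was lower, with a median of 1.54. Of all tested genes 22.1% were higher and 21.2% lower. Under DMSO 0 of the 29 were higher and 7 lower, against 4.46% and 6.56% of all tested genes. XTH6, a xyloglucan endotransglucosylase, had 5.11, 4.35 and 4.29 CPM in WT and 45, 78.2 and 45.9 CPM in sid2 (3.62 ± 0.37, adjusted p = 5.74e-06). The lowest sid2 library was above every WT library by a wide margin. XTH7 rose by 2.75, the arabinogalactan protein FLA8 by 2.62 and the expansin EXPA6 by 2.12. The exception was XTH24, with 99.4, 111 and 197 CPM in WT and 28.6, 30.6 and 39.6 CPM in sid2 (-2.04 ± 0.42).

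Of 15 measured tubulin genes 13 were higher and 0 lower in sid2, with a median of 1.18, and 9 were higher by library size alone. TUB5 had 6.75, 9.44 and 6.12 CPM in WT and 65.5, 55.1 and 72.6 CPM in sid2 (3.12 ± 0.28, adjusted p = 2.4e-06). No library of one genotype fell in the range of the other. TUB3 (1.71), TUB6 (1.64) and TUB2 (1.40) rose by less, and reads of these near-identical copies may have been divided unevenly. Actin and its binding proteins, the direct setting of the drug, gave no common direction, with 11 of 41 measured genes higher, 13 lower and a median of 0.03. By library size alone 7 were higher and 16 lower. Of all tested genes 22.1% were higher and 21.2% lower in the main fit. The formin FH6 had 49.2 to 53.4 CPM in WT against 17.2 to 18.6 CPM in sid2 (-1.52 ± 0.14), and the myosin XI-2 fell by 1.17. The myosin XI-1 had 12.7 to 13.7 CPM in WT against 26.3 to 27.8 CPM in sid2 (1.03 ± 0.11). The formin FH1 was higher in sid2 by 1.26. Both subunits of the capping protein that closes filament ends were higher, CPA by 0.87 and CPB by 1.10. Among the 11 higher genes were also the actins ACT11 (2.97), ACT3 (1.34) and ACT2 (0.44). AT2G42170, annotated as an actin family protein, was among the 10 largest rises of all genes. It had 0 to 0.298 CPM in WT against 1.79 to 3.82 CPM in sid2. FH6 was lower in sid2 under DMSO as well (-1.45), whereas FH1 was lower there (-1.12, adjusted p = 0.016). The libraries hold no measure of the filaments themselves.

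Markers of other leaf cell types moved beside these groups, and their part in the results was not tested. Of 9 measured epidermis markers 7 were higher in sid2 and 0 lower (median 1.06), and their sum was 265 to 504 CPM in WT against 628 to 973 CPM in sid2. The wax gene CER3 had 12.3 to 16.7 CPM in WT against 36.2 to 45.4 CPM in sid2 (1.46 ± 0.17), and CER5, a wax transporter (1.15), ATML1, a regulator of epidermal identity (1.06), and FDH, a fatty acid elongase (1.03), also rose. Without sid2 replicate 2 only 4 of the markers passed. Of 9 guard cell markers 2 were higher and 2 lower, shares near the 22.1% and 21.2% of all tested genes (each count was 1 when single libraries were left out, such as WT replicate 3), with sums of 647 to 698 CPM in WT against 769 to 1089 CPM in sid2. KAT1, a potassium channel of guard cells, had 81.5, 72.2 and 92.7 CPM in WT and 17.3, 18.5 and 10.3 CPM in sid2 (-2.42 ± 0.25, adjusted p = 6.99e-06). KAT2 was the other lower marker (-0.96), and the higher ones were MYB60 (2.25) and TGG1 (0.57). Of 10 phloem markers 3 were higher and 2 lower, again near those shares (0 and 6 by library size alone), with sums of 885 to 1016 CPM and 850 to 912 CPM. SWEET12, a sucrose exporter, had 11.9 to 19.1 CPM in WT against 0.686 to 1.95 CPM in sid2 (-3.31 ± 0.37). NAKR1 was the other lower marker (-0.63), and the higher ones included SEOB (0.73) and SULTR2;1 (0.60). Of 6 xylem markers 0 passed in either direction by edgeR, with sums of 12.1 to 19.0 CPM in WT against 12.8 to 23.1 CPM in sid2.

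Transcripts of mitochondrial functions shifted between the genotypes. Of 11 measured genes of alternative respiration and mitochondrial stress 5 were lower and 2 higher, with a median of -0.63. Of all tested genes 21.2% were lower and 22.1% higher. NDA2, an alternative NADH dehydrogenase, had 61.2, 74.6 and 78 CPM in WT and 15.2, 8.89 and 15.1 CPM in sid2 (-2.45 ± 0.20). NDB2, of the same enzyme class, fell by 1.88, and NAC017, a regulator of the retrograde response, by 0.69. DIC2, a mitochondrial dicarboxylate carrier, went the other way with 10.8, 11.5 and 7.54 CPM in WT and 65.9, 99.3 and 44.4 CPM in sid2 (2.82 ± 0.43). Genes encoded in the mitochondrion were lower in 25 and higher in 0 of 40 measured, with a median of -1.28. They took 0.0276% to 0.0330% of the reads in WT and 0.0102% to 0.0113% in sid2. The count fell to 16 without sid2 replicate 1, and reads shared with nuclear copies are uncertain.

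Glutathione transferases were lower in 11 and higher in 3 of 24 measured (median -0.64). The lower count fell to 4 without WT replicate 3 and to 6 without sid2 replicate 1. Of all tested genes 21.2% were lower and 22.1% higher. GSTU19 had 266, 345 and 475 CPM in WT and 171, 178 and 158 CPM in sid2 (-1.10 ± 0.18). GSTU8 (-2.37) was lower, and GSTU17 (1.36) and GSTU13 (1.45) were higher.

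Of all tested genes 22.1% were higher and 21.2% lower, the background for each list of this paragraph. The jasmonate pathway showed little net change, with 3 of 23 measured genes of synthesis and the MYC branch higher, 3 lower and a median of 0.01. The higher count was 1 without WT replicate 1 or sid2 replicate 1, and the lower count was 5 without WT replicate 3 or WT_DMSO replicate 3 and 7 by library size alone. OPR3, a reductase of jasmonate synthesis, fell by 1.12, JAR1, which makes the active isoleucine conjugate, fell by 0.97, and the repressor JAZ3 rose by 1.06. In the branch that jasmonate shares with ethylene, 2 of 6 measured genes were higher and 0 lower. They were the defensins PDF1.2A and PDF1.2B, close copies whose reads may have been divided unevenly. PDF1.2B had 0.397, 0.735 and 0.594 CPM in WT and 6.37, 3.74 and 14.8 CPM in sid2 (3.84 ± 0.55, or 3.12 without sid2 replicate 3). PDF1.2A had 1.24, 5.93 and 0.503 CPM in WT and 24.3, 12.2 and 24.3 CPM in sid2 (3.02 ± 0.66, or 4.53 without WT replicate 2). Every sid2 library lay above every WT library for both, while their regulator ORA59 did not pass (1.71, adjusted p = 0.0798), though it did in a fit to the 6 libraries alone (0.0312) and without sid2 replicate 2 (0.0487). Of 12 measured ethylene genes 5 were higher and 2 lower, but 4 and 3 by library size alone and 3 and 4 by limma on TPM. The response factor ERF5 (2.83) was higher, while the ethylene-forming oxidase ACO4 (-1.24) and the synthase ACS2 (-2.50) were lower.

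Of all tested genes 22.1% were higher and 21.2% lower under the drug, the background for each drug count of this paragraph. Abscisic acid genes gave 3 higher and 5 lower of 21 measured (median -0.41). There were 11 lower by library size alone and 3 without sid2 replicate 3. NCED3, the rate-limiting enzyme of abscisic acid synthesis, had 13.1 to 15.7 CPM in WT against 30.3 to 36.6 CPM in sid2 (1.24 ± 0.25). Lower were the phosphatases HAB1 (-1.28) and HAI1 (-2.12), which restrain the signal, and AAO3, which makes the last step of synthesis (-0.74). Under DMSO the same list held 10 higher and 0 lower genes, against 4.46% and 6.56% of all tested genes. The difference of the effects was negative for 9 (10.7% of all tested genes). Clock genes were lower in 4 of 12 measured, or 2 without sid2 replicate 1 or 3, and higher in 0. TOC1, an evening gene, had 31.1 to 41.9 CPM in WT against 9.06 to 12 CPM in sid2 (-1.82 ± 0.16), and the morning gene LHY fell by 0.68. The labels used here give no hour of sampling. Of 14 senescence genes 3 were lower (7 by library size alone), near the share of all tested genes, and 1 was higher (0 without WT replicate 1, WT replicate 3 or sid2 replicate 3). The lower genes included the regulator JUB1 (-1.98 ± 0.23). Of 12 aliphatic glucosinolate genes 8 were higher and 0 lower, with 3 higher by library size alone and 5 without WT replicate 2. Their regulator MYB29 had 8.59, 20.3 and 13.2 CPM in WT and 49.9, 47.2 and 37.4 CPM in sid2 (1.68 ± 0.26). Of 7 cytosolic heat shock genes and 6 cell division genes, 1 each was higher and 0 lower. The heat shock call was lost without WT replicate 1 or 3 or sid2 replicate 1 or 2, and the cell division call without WT replicate 2 or 3 or sid2 replicate 2.

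Under the drug, the largest excesses of sid2 over WT were in genes of low level in the WT libraries. ESE3, an AP2/ERF transcription factor, was the steadiest of them, with 2.53, 0.848 and 1.28 CPM in WT and 35.5, 34.2 and 35.8 CPM in sid2 (4.48 ± 0.43, adjusted p = 3.49e-06). AT5G51190, of the same factor family, had 0.397, 1.58 and 0.64 CPM in WT and 11.3, 33.6 and 8.62 CPM in sid2 (4.37, or 3.53 without sid2 replicate 2 and 5.07 without WT replicate 2). SAUR68, an auxin-induced small protein, had 5 reads over the WT group and 136 over the sid2 group. The related SAUR22 had 3 reads in WT and 131 in sid2, a ratio of 45.6 with a 95% counting interval from 15.3 to 224. DIN11, a dark-induced oxygenase family gene, had 3 reads in WT and 230 in sid2, a ratio of 80.1 with an interval from 27.1 to 391. Under DMSO the mean WT levels were 18.8 CPM for ESE3, 3.65 for SAUR68, 2.27 for SAUR22 and 4.17 for DIN11. The sid2 means there were 33.3, 3.14, 3.57 and 0.333 CPM, in that order. AT5G51190 had means of 1.37 CPM in WT and 4.23 CPM in sid2 under DMSO. DIN11 was lower in sid2 there (-3.63, adjusted p = 0.022). CER4, a wax reductase, and AT4G10910, an uncharacterized protein, had no reads in the 3 WT libraries under the drug. Over the WT libraries under DMSO they had 53 and 59 reads. They were at least 26.3-fold and 41.6-fold higher in sid2 against the floor of 3 reads.

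The DMSO libraries show which of these differences the genotypes also had without the drug. The comparisons contrast different libraries but share a fit and its estimate of spread. Their calls are set side by side. Of the 3850 genes lower under latrunculin B, 746 (19.4%) were also lower under DMSO, and they made up 62.6% of the genes lower there. Of the 4020 higher genes 337 (8.38%) were also higher under DMSO, which is 41.6% of the genes higher there. The genes called only under the drug numbered 2997 lower and 3587 higher, which does not by itself show a difference. The DMSO counts rest on single libraries more than the drug counts do. Genes higher under DMSO numbered 323 without WT_DMSO replicate 1, 476 without WT_DMSO replicate 2 and 354 without sid2_DMSO replicate 1, and lower genes 712 without WT_DMSO replicate 1 and 740 without sid2_DMSO replicate 1. Tested directly, the effect was more negative under the drug for 1599 of the 3850 lower genes and more positive for 2117 of the 4020 higher genes.

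**Figure D5:**
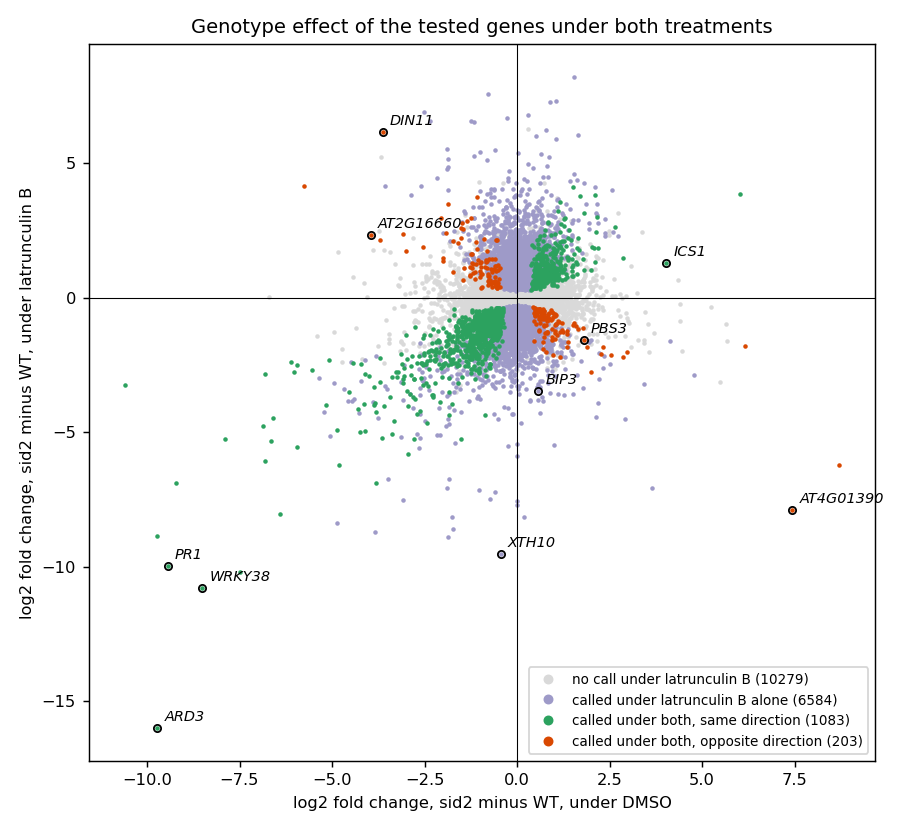
Genotype effect (log2 fold change of sid2 over WT) of each of the 18149 tested genes under DMSO on the horizontal axis and under latrunculin B on the vertical axis, coloured by call. Genes called in both treatments in the same direction number 1083 and those called in opposite directions 203; fitted values of genes without reads in a group are no measured folds.

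A reversal between treatments was called for 203 genes. Under latrunculin B 107 of them were lower in sid2 (2.78% of the lower genes) and higher under DMSO, and 96 were higher (2.39%) and lower under DMSO. Besides PBS3, the first set held AT5G39670, a calcium-binding EF-hand protein, with 96.2, 102 and 108 CPM in WT and 44.6, 52.1 and 50.8 CPM in sid2 (-1.05, against 1.59 under DMSO). AT5G24200, an alpha/beta-hydrolase (-1.22 against 1.34), and AT2G41410, another EF-hand protein (-0.76 against 0.84), followed the same pattern. In the second set FLA13, an arabinogalactan protein, had 7.74, 12.3 and 8.5 CPM in WT and 35.8, 48.3 and 39.9 CPM in sid2 (2.12, against -1.72 under DMSO). AT2G16660 (2.34 against -3.96) and AT4G34950 (2.15 against -3.72), both of the major facilitator family of transporters, and AT4G32800, an AP2/ERF factor (1.38 against -2.00), were also in that set. AT4G01390, a TRAF-like protein, had 610 reads over the WT group under the drug and 2 over the sid2 group, a ratio of 292 with a counting interval from 80.5 to 2420. Under DMSO it was near 0 in WT and had 13.1, 8.79 and 0.285 CPM in the sid2 libraries, so that value rests on 2 of 3 libraries.

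Among genes called under the drug, the difference between treatments was firmest for BIP3, ICS1, PDIL1-2 and CRT1B, described above, and for CYP89A9 on the negative side. CYP89A9, a cytochrome P450 of chlorophyll breakdown, had 140.4, 139 and 154 CPM in WT and 48.6, 45.4 and 45.9 CPM in sid2 (-1.63 ± 0.14, against 0.69 under DMSO). The genotypes were far apart under the drug and in the opposite order under DMSO (adjusted p of the difference 3.3e-05). On the positive side SVR1, a pseudouridine synthase of the chloroplast, had 3.57, 4.86 and 4.11 CPM in WT and 17.6, 18.8 and 19 CPM in sid2 (2.14 ± 0.17, against -0.54 under DMSO). AT2G45180, a lipid transfer protein, had 191, 199.9 and 228 CPM in WT and 787, 822 and 1148 CPM in sid2 (2.16 ± 0.16, against -0.56). AT4G23820, a pectin lyase-like protein, was higher in sid2 than in WT by 3.76 under the drug and lower by 1.08 under DMSO. AT5G44020, an acid phosphatase, was higher in sid2 by 2.86 under the drug and lower by 1.35 under DMSO. AT3G05900, a neurofilament-like protein, was higher in sid2 by 2.74 under the drug.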

How the data were processed

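RNA-seq libraries of rosette leaves were made with a directional kit, per the labels' protocols. The submitters' processing notes list Trimmomatic, Salmon 1.3.0 and the TAIR10 build. The deposited tables hold an estimated count of reads and a TPM value for each transcript, per the file headers. Of the model lengths 99.99% were multiples of 3 (coding length), and 96.4% of 32194 nuclear models had the coding length of the same RefSeq TAIR10.1 model, which supplied names, positions and promoters. Where genes are near-identical, the estimation split their shared reads.

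The estimated counts were summed to 27313 genes, of which 26645 were in the reference, and rounded. Library totals ran from 14506962 to 22449387. After filterByExpr 18149 genes were tested with the quasi-likelihood test of edgeR 4.0.16 (R 4.3.3, TMM, 1 mean for each of the 4 groups over 12 libraries, Benjamini-Hochberg adjustment, threshold 0.05). Every adjusted p in the text is from that fit unless another is named. Errors of log2 fold changes are standard errors from the fit. The comparisons were sid2 minus WT under latrunculin B, the same under DMSO, and the difference of these effects, which shares libraries with both. Alternatives were RLE, upper-quartile and library-size scaling, no filter, effective-length offsets, no organelle genes, robust hyperparameters, a log2 change of at least 1, only the 6 libraries compared, leaving out each library, DESeq2 1.42.0, and limma 3.58.1 on log2(TPM + 1) with a minimum TPM of 1 in 3 libraries. The edgeR fit was also run on simulated counts. Few genes changed there, as many up as down, so that run does not test the scaling under changes as wide as these.

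The comparison and the gene lists were chosen with earlier results of these data known, so their counts are descriptions without a list test. Named genes are ICS1 and PR1, the 10 largest changes in each direction (average log2 CPM at least 1, libraries not overlapping), up to 4 members of each list by adjusted p, members that passed against their list's majority, up to 3 genes in each direction without reads in a group, up to 4 in each pattern of reversal, and the 5 firmest differences in each direction. Not all of these are printed. The labels give no batch or pairing. Replicate pairs differed beyond sampling noise. Counting intervals and floors of 3 reads cover counting error only.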

Additional observations from a re-analysis of the deposited data

Results flagged for a closer look

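The effect of the sid2 genotype differed between latrunculin B and DMSO for many genes, by the test of the difference itself (edgeR, adjusted p under 0.05). The difference, taken as the log2 effect under the drug minus that under DMSO, was positive for 2436 genes and negative for 1948 genes, and it shares its libraries with both comparisons. The genes below are among those named in the report. In SA metabolism the difference was -2.725 for ICS1, -3.37 for PBS3 and -2.997 for MES9. In the ER it was -4.034 for BIP3, -2.179 for PDIL1-2 and -2.06 for CRT1B, where the effects of BIP3 and PDIL1-2 under DMSO were 0.57 and -0.09 (adjusted p = 0.0887 and 0.683), and among the genes of the unfolded protein response -2.119 for TIN1, -1.449 for BI1, -0.9511 for BZIP17 and -1.268 for NAC062. It was -2.63 for the receptor kinase CRK23, -2.523 for CYP79B2, -2.322 for CYP89A9 and 2.375 for the formin FH1.

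Genes whose call reversed between the treatments gave differences of -2.64 for AT5G39670, -2.551 for AT5G24200 and -1.591 for AT2G41410, and of 3.845 for FLA13, 6.298 for AT2G16660, 5.869 for AT4G34950 and 3.382 for AT4G32800. Those with the firmest positive differences were SVR1 (2.686), AT2G45180 (2.715), AT4G23820 (4.831), AT5G44020 (4.208) and AT3G05900 (3.373, with -0.64 under DMSO, adjusted p = 0.0776). The differences of XTH10 (-9.064), AT4G01390 (-15.33) and DIN11 (9.809) are fitted values that depend on groups of few reads and give a direction, not a size.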

How the results depend on the processing

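Genes lower in sid2 under latrunculin B numbered 6071 by library size alone and 6093 by limma on log2(TPM + 1), and these included 3850 and 3760 of the 3850 genes. Higher genes numbered 2654 by limma, of which 2619 were among the 4020. Negative differences between treatments numbered 2975 by library size alone and 3583 by limma. Requiring a log2 change of at least 1 left 2073 higher and 1800 lower genes under the drug, 263 higher and 592 lower under DMSO, and 1133 negative differences. With only the 6 libraries compared, 393 genes were higher and 651 lower under DMSO. Leaving out 1 library at a time gave 3300 to 4220 higher and 3116 to 4120 lower genes under the drug. Under DMSO it gave 323 (without WT replicate 1) to 951 higher (without sid2 replicate 3) and 712 to 1396 lower genes, and the higher count was 476 without WT replicate 2 and 354 without sid2 replicate 1. The lower count was 740 without sid2 replicate 1. The cause of these shifts was not tested. Of 137 genes named with a passing call, 134 kept their direction and call under every alternative run, up to 22 for a gene. The other 3 (FLS2, PEPR1 and CYP81F2) lost the call under at least 1. No paired analysis was possible because the labels give the groups no shared replicate numbers. Depth limits the genes with few reads in a group, whose fitted values are given as bounds or counting ratios.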
